A study of Mus musculus with 6 samples.

Results

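The genes described here encode the kinase cascade that BRAF belongs to. They are the RAS genes Hras and Nras, the RAF genes Braf and Araf, the MEK genes Map2k1 and Map2k2, and the ERK gene Mapk3. These 7 symbols were chosen by name, with earlier results of these data known. Each was found once among the 49016 gene symbols of the deposited count table. The study sequenced RNA of sorted mouse myeloid cells in 6 libraries. Wild-type (WT) mice gave 1 library each of monocytes, intravascular macrophages (IVM) and microglia, and mice labelled BRAFV600E mutant (VE) gave 1 library of each of the same cell types. Monocytes circulate in blood, intravascular macrophages lie within vessels and microglia are the resident macrophages of the brain. The labels give no age, no driver of the mutant allele, no number of pooled animals and no gate, so it is not known which of the sorted cells carry the mutation.

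RAS proteins are membrane-bound switches that are active when they hold GTP. Active RAS brings RAF kinases to the membrane, RAF phosphorylates the MEK kinases, and MEK phosphorylates the ERK kinases, which act on transcription factors and other kinases. The V600E substitution in BRAF keeps the kinase active without RAS and is found in histiocytic disorders of myeloid cells. The pathway is switched mainly by GTP loading and phosphorylation, which RNA levels do not measure.

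The codon that the V600E label refers to, in the numbering of the human protein, is shown here in capitals with 45 bases of mouse Braf around it. The same stretch of Araf stands beside it, because it is where the kinases can be set side by side. A V600E change in mouse Braf itself would lie there. The sequences were read 5′ to 3′ on the coding strand from GENCODE M21 transcripts (build GRCm38). Braf lies at chr6:39627761-39627805 (minus strand, exon 15) and Araf at chrX:20858429-20858473 (plus strand, exon 13).
Braf: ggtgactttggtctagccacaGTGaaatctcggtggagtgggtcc
Araf: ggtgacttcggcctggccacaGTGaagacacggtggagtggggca
Both genes carry the codon GTG at this place, and Araf shared 37 of the 45 bases with Braf. The deposited tables hold 1 count per gene and library, so they do not show which allele was read or how the mutant allele was built.

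Total counts over named genes ran from 25757886 in WT monocytes to 65421671 in VE IVM. Every member was read in every library, with between 152 counts (Hras in VE microglia) and 19295 counts (Map2k1 in VE IVM). The libraries held between 15121 genes with a count (WT IVM, the fewest) and 23214 (VE IVM, the most). Microglia markers summed to 28090 and 60170 CPM (read counts brought to one library size by TMM factors) in WT and VE microglia, to 2313 and 7812 CPM in WT and VE IVM, and to at most 169 CPM in monocytes. Classical monocyte markers summed to 7109 and 11600 CPM in WT and VE monocytes and to at most 1047 CPM elsewhere, and patrolling monocyte markers were highest in IVM, at 2357 CPM (WT) and 2961 CPM (VE). Markers of other cells differed between genotypes as well. For T and NK cells the marker sum was 4795 CPM in WT IVM, with 12 of 12 genes at 10 CPM or more, against 3.68 CPM in VE IVM, with 0 of 12 (Cd8a and Ncr1 at 0 counts), and 55.9 and 271 CPM in WT and VE monocytes. In IVM the neutrophil marker sum was 23.1 CPM in WT and 392 CPM in VE (1 and 7 of 10 genes at 10 CPM or more). Neutrophil markers summed to 56270 CPM in VE and 1789 CPM in WT monocytes (9 and 6 of 10 genes at 10 CPM or more), and erythroid markers to 10490 and 218 CPM (7 and 4 of 7). B cell markers summed to between 15.1 and 109 CPM. In microglia, T and NK, neutrophil and erythroid markers summed to between 0.896 and 13.2 CPM. With 1 library per cell type and genotype, genotype cannot be told apart from whatever else separates 2 libraries, and a lower level can be fewer cells of a type or less RNA per cell. No genotype difference has a p-value here. Folds carry exact 95% intervals of the 2 counts, which cover counting error only.

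Levels of different genes can be compared in TPM (counts divided by gene length and brought to one sum per library), within a library. The deposited TPM followed the exonic bases of a gene, 13862 for Braf and 6541 for Araf. Their longest transcripts have 9728 and 2854 bases, so levels and shares between genes depend on the length used. On that scale Braf was the lowest of the 7 genes in 5 of the 6 libraries, from 0.805 TPM in VE monocytes to 8.12 TPM in WT microglia. The exception was VE IVM, where Hras stood lower, at 2.25 against 6.10 TPM. The MEK and ERK genes were at the top. Mapk3 led in WT monocytes (76.4 TPM), VE monocytes (39.5 TPM) and WT microglia (138 TPM). Map2k1 led in VE IVM (217 TPM) and VE microglia (95.02 TPM), and Map2k2 in WT IVM (70.8 TPM).

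**Figure D1:**
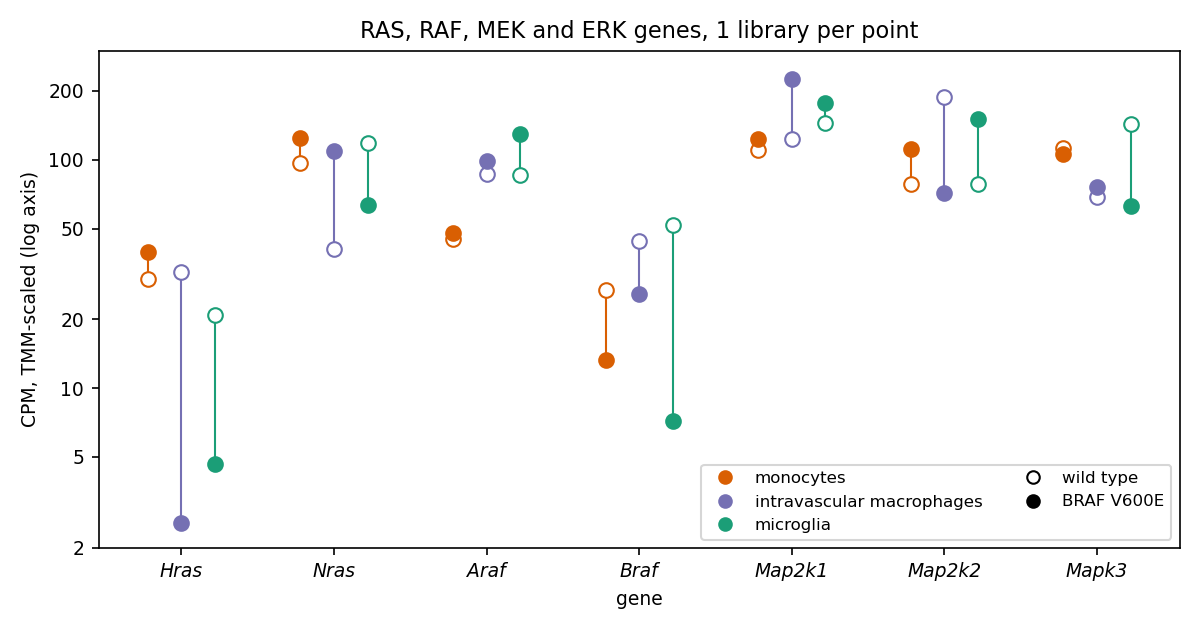
Level of each member gene (x axis) in CPM on a log axis (y axis), 1 point per library, open for wild type and filled for BRAF V600E, coloured by cell type with a line joining the genotypes. Braf is lower in the mutant library of each cell type, Hras spans 2.58 to 39.5 CPM, and the monocyte points of the genes other than Braf lie close together.

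At the top of the cascade, Hras varied more than any other member. Hras encodes a RAS switch protein (ENSMUSG00000025499.18, protein coding, chromosome 7, 141189105 to 141194005, minus strand, GRCm38). Its CPM were 30.0 in WT and 39.5 in VE monocytes, 32.1 and 2.58 in WT and VE IVM, and 20.8 and 4.67 in WT and VE microglia. The mutant IVM and microglia libraries were thus the lowest 2 of the 6, while both monocyte libraries and WT IVM were at 30 CPM or above. Hras was 12.4-fold lower in VE than in WT IVM (95% counting interval 10.8 to 14.4) and 4.46-fold lower in VE than in WT microglia (3.76 to 5.33). In monocytes it was 1.31-fold higher in VE (1.20 to 1.44), a direction that did not hold under other scalings (log2 ratios from -0.55 to 0.54 over TMM and 6 other ways of scaling or correcting the values, called settings here).

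Nras, the second RAS gene (ENSMUSG00000027852.14, chromosome 3, 103058285 to 103067914, plus strand), took another course. It stood at 96.5 and 125 CPM in WT and VE monocytes, 40.7 and 109 CPM in IVM, and 118 and 63.2 CPM in microglia. WT IVM and VE microglia were its low libraries, and the other 4 lay between 96.5 and 125 CPM. Nras was 2.67-fold higher in VE IVM (2.53 to 2.82) and 1.87-fold lower in VE microglia (1.77 to 1.97). In monocytes it was 1.30-fold higher in VE, with log2 ratios from -0.59 to 0.48 over the settings.

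The balance of Hras and Nras within a library does not depend on how libraries are scaled to each other. Of their summed TPM, Hras made up 30.8% in WT and 31.1% in VE monocytes. In IVM its share was 53.0% in WT and 3.28% in VE, and in microglia 20.1% and 9.55%. WT IVM was thus the library with more Hras than Nras, and VE IVM the one with the least Hras. The ratio of Nras to Hras was 0.888 in WT IVM and 29.5 in VE IVM, a 33.2-fold difference (28.5 to 38.8, normal approximation on the log counts). In microglia this ratio differed 2.39-fold (2.00 to 2.86), and in monocytes 1.01-fold, with an interval of 0.915 to 1.12 that holds 1. After the length and GC correction described further on, the differences were 27.3-fold in IVM, 2.56-fold in microglia and 1.05-fold in monocytes.

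Braf was lower in the mutant library of every cell type. The gene (ENSMUSG00000002413.15, chromosome 6, 39603237 to 39725463, minus strand) shares 146 of its 13862 exonic bases with Ndufb2 on the opposite strand, and whether counting used strand is not given in the sources used here. Braf stood at 27.0 and 13.3 CPM in WT and VE monocytes, 44.1 and 25.96 CPM in IVM, and 51.8 and 7.22 CPM in microglia. In each pair the mutant library was the lower one, by 2.03-fold in monocytes (1.80 to 2.28), 1.70-fold in IVM (1.59 to 1.81) and 7.18-fold in microglia (6.28 to 8.24). In microglia the ratio was below that of all but 0.671% of the 8798 genes with at least 10 CPM in the higher library, in monocytes below all but 5.93% of 8377 genes, and in IVM below all but 34.0% of 9565 genes. Of 6935 genes with 10 CPM or more in each pair, 14.1% were lower in VE in all 3 cell types, and 2.54% were at least 1.5-fold lower in all 3, as Braf was. The IVM direction turned with TPM as deposited (log2 ratio 0.38), a setting in which the median log2 ratio of all genes was 1.02. With TPM of protein-coding genes the ratio of Braf in IVM was -0.60.

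Araf, on the X chromosome (ENSMUSG00000001127.12, 20797814 to 20860519, plus strand), differed far less between genotypes. Its CPM were 44.8 and 47.9 in WT and VE monocytes, 86.8 and 98.3 in IVM, and 85.7 and 129 in microglia. Both monocyte libraries lay below the other 4. The fold from WT to VE was 1.07 in monocytes (0.992 to 1.16, holding 1), 1.13 in IVM (1.09 to 1.18) and 1.51 in microglia (1.44 to 1.58). The direction did not hold over the settings in monocytes (log2 ratios from -0.80 to 0.10) or microglia (-0.46 to 0.59).

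Set against Araf, the share of Braf was alike in the 3 wild-type libraries and lower in the 3 mutant ones. Braf took 22.2% of the summed TPM of Braf and Araf in WT monocytes, 19.4% in WT IVM and 22.2% in WT microglia. In the mutant libraries its share was 11.6% in monocytes, 11.1% in IVM and 2.57% in microglia. The WT and VE shares did not overlap, but the 3 libraries of a genotype are different cell types and no replicates. The ratio of Araf to Braf was 2.17-fold higher in VE monocytes (1.89 to 2.49), 1.93-fold higher in VE IVM (1.79 to 2.08) and 10.8-fold higher in VE microglia (9.41 to 12.5). With the length and GC correction described further on, it was 1.63-fold higher in VE monocytes, 1.70-fold in VE IVM and 3.83-fold in VE microglia. Araf was the more abundant of both in all 6 libraries.

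**Figure D2:**
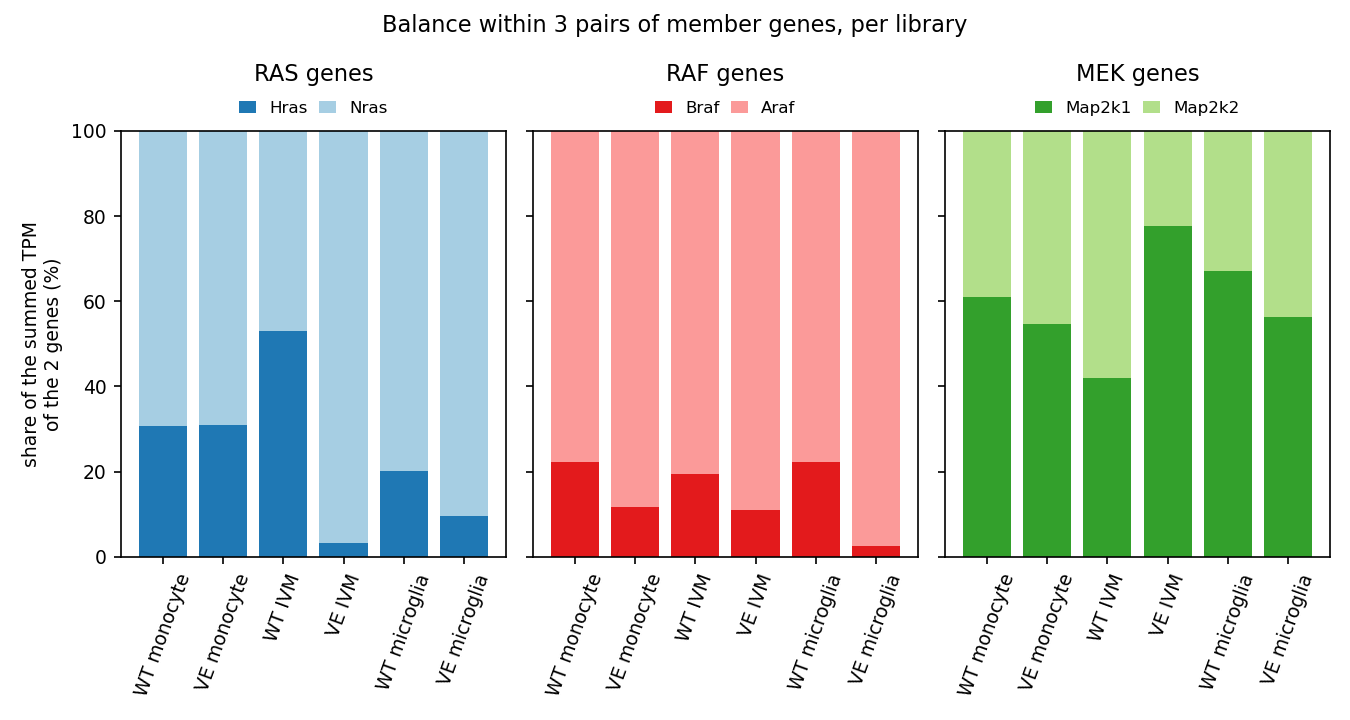
Share (y axis, % of the summed TPM) of each gene within the pairs Hras and Nras, Braf and Araf, and Map2k1 and Map2k2, 1 stacked bar per library (x axis). The Hras share is 3.28% in VE IVM against 53.0% in WT IVM, and the Braf share is smaller in each mutant library than in any wild-type one.

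At the MEK level, Map2k1 was the steadiest member. It encodes MEK1 (ENSMUSG00000004936.8, chromosome 9, 64185770 to 64253631, minus strand) and stood at 111 and 123 CPM in WT and VE monocytes, 124 and 226 CPM in IVM, and 145 and 177 CPM in microglia. All values lay within 2.04-fold, with VE IVM the highest. VE was 1.11-fold higher in monocytes (1.06 to 1.17), 1.83-fold higher in IVM (1.77 to 1.89) and 1.22-fold higher in microglia (1.18 to 1.27). The direction held over the settings in IVM, and not in monocytes (log2 ratios from -0.82 to 0.15) or microglia (-0.76 to 0.29). Araf and Map2k1 were thus the members higher in VE in all 3 cell types by TMM, as 15.7% of 6935 genes were.

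Map2k2, which encodes MEK2 (ENSMUSG00000035027.18, chromosome 10, 81105915 to 81133975, plus strand), was high in WT IVM and VE microglia. Its CPM were 77.97 and 112 in WT and VE monocytes, 187 and 71.4 in IVM, and 78.1 and 151 in microglia. It was 2.62-fold lower in VE IVM (2.54 to 2.72), 1.43-fold higher in VE monocytes (1.36 to 1.52) and 1.93-fold higher in VE microglia (1.85 to 2.02). The direction did not hold over the settings in monocytes (log2 ratios from -0.45 to 0.71) or microglia (-0.11 to 1.43).

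The MEK balance was turned in IVM. Map2k1 held 42.0% of the summed TPM of Map2k1 and Map2k2 in WT IVM and 77.7% in VE IVM. The ratio of Map2k1 to Map2k2 was thus 4.79-fold higher in the mutant library (4.57 to 5.02), and 3.25-fold higher after the length and GC correction. In the other cell types the ratio was lower in VE, by 1.29-fold in monocytes (1.20 to 1.39) and 1.58-fold in microglia (1.496 to 1.67). After the length and GC correction it was 1.54-fold lower in monocytes and 3.10-fold lower in microglia. Map2k1 stayed the more abundant MEK gene in those 4 libraries, at 54.6% to 67.1%.

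Mapk3 encodes ERK1 (ENSMUSG00000063065.13, chromosome 7, 126759601 to 126765819, plus strand). It stood at 113 and 106 CPM in WT and VE monocytes, 69.0 and 75.7 CPM in IVM, and 143 and 62.5 CPM in microglia. Only WT microglia and the monocytes were above 100 CPM. VE was 2.29-fold lower in microglia (2.18 to 2.41), 1.06-fold lower in monocytes (1.01 to 1.11) and 1.10-fold higher in IVM (1.05 to 1.15).

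Read over the 7 genes, 5 passed a 2-fold difference between genotypes with at least 10 CPM in the higher library in at least 1 cell type, and Araf and Map2k1 in none. In monocytes 1 of 7 was lower (Braf) and 0 were higher, against 6.33% of 8377 genes lower and 16.7% higher. In IVM 2 of 7 were lower (Hras and Map2k2) and 1 higher (Nras), against 28.8% of 9565 genes lower and 26.9% higher. In microglia 3 of 7 were lower (Braf, Hras and Mapk3) and 0 higher, against 25.4% of 8798 genes lower and 27.9% higher. At least 4-fold lower were Hras in IVM, where 13.1% of genes were so, and Braf and Hras in microglia, where 4.64% were. No member was 4-fold lower in monocytes, where 0.609% of genes were, and none was 4-fold higher in any cell type, as 6.37% of genes were in monocytes, 16.5% in IVM and 2.83% in microglia. The median log2 ratio of the 7 genes was 0.15 in monocytes, 0.13 in IVM and -0.90 in microglia, beside 0.05, -0.13 and 0.12 over all genes.

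**Figure D3:**
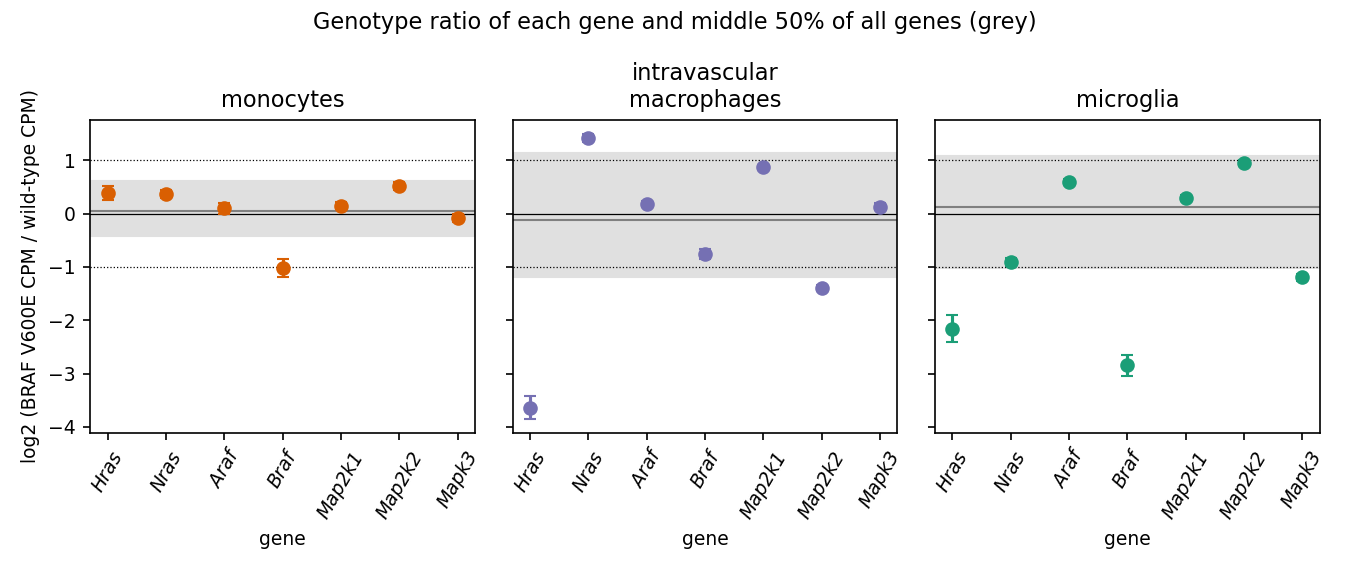
Log2 ratio of BRAF V600E to wild-type CPM (y axis) of each member (x axis) in the 3 cell types, with exact 95% counting intervals as bars. The grey band holds the middle 50% of all genes at 10 CPM or more, the grey line is their median and the dotted lines mark 2-fold; Braf in monocytes, Hras and Map2k2 in IVM, and Braf, Hras and Mapk3 in microglia lie below the band, and Nras in IVM lies above it.

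Transcript length moved with the genotype ratio over all genes. Genes were ranked by their longest transcript and split into 4 groups of equal size. In microglia the group with the shortest transcripts had a median log2 ratio of 1.22, and the group with the longest, from 4748 bases, had -0.95. The medians of the groups between were 0.45 and -0.58. Braf, with a longest transcript of 9728 bases, is in the longest group, and Nras, with 4470 bases, in the next. Hras (2828 bases) is in the second shortest group and Mapk3 (1800 bases) in the shortest. After correction for length and GC content, the microglia log2 ratio of Braf was -1.74 in place of -2.84, that of Hras -1.89 in place of -2.15, and that of Mapk3 -1.70 in place of -1.20. In monocytes the medians ran from 0.59 (shortest) to -0.26 (longest), and the corrected ratio of Braf was -0.70, short of 2-fold. In IVM they were -0.69 (shortest) and 0.09 (longest), and corrected Hras stood at -3.59, while corrected Map2k2 was at -0.90, short of 2-fold. The part of the T and NK, neutrophil, erythroid and microglia marker reads, and of the number of genes detected, in these ratios was not tested.

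The 7 settings were TMM and 6 others (2 other scalings of the counts, 2 forms of TPM, another prior count, and the length and GC correction). Over them, 12 of the 21 member ratios kept their sign, and 5 stayed at least 2-fold in all 7. They were Braf, Hras and Mapk3, lower in VE microglia, Hras, lower in VE IVM, and Nras, higher in VE IVM.

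**Figure D4:**
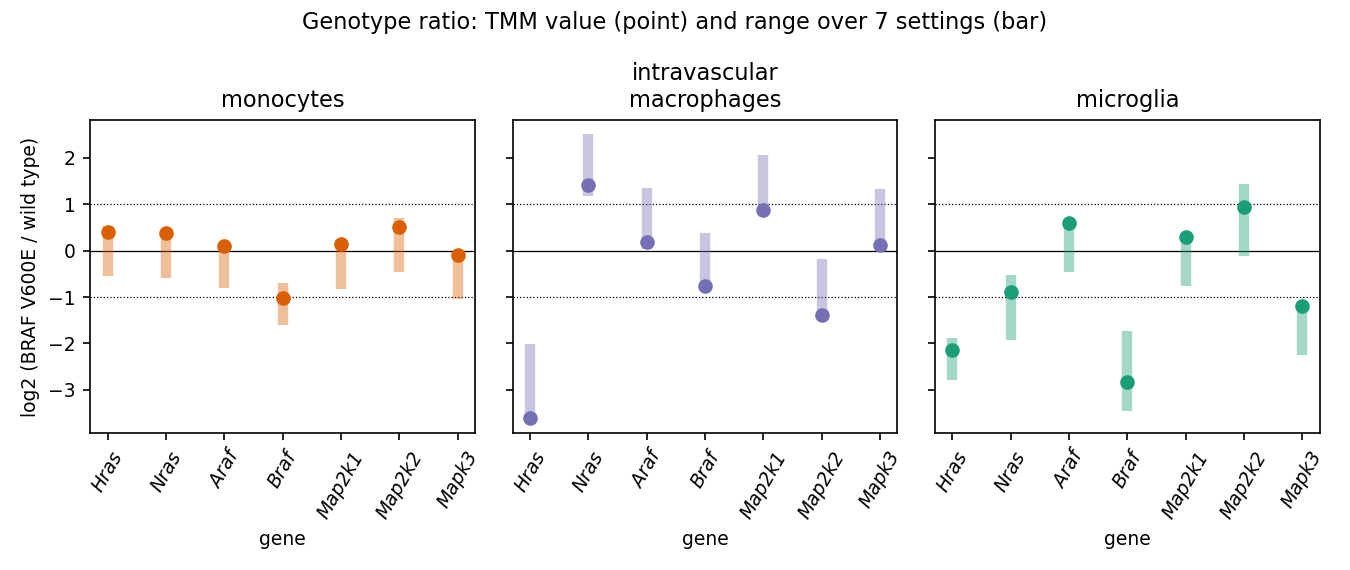
Log2 ratio of BRAF V600E to wild type (y axis) per member (x axis) and cell type. Points are the TMM-scaled values, and bars span the lowest and highest value over 7 settings, those on TPM being log2(TPM + 1); dotted lines mark 2-fold, and the bars of Hras and Nras in IVM and of Braf, Hras and Mapk3 in microglia lie wholly beyond them.

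Cell types were then compared over both genotypes in 1 fit of all 6 libraries (edgeR's quasi-likelihood test) with genotype as a block. The 3 comparisons share libraries. The labels do not tie libraries to animals, and a p-value reflects the spread among these libraries alone, which may be technical. No member passed an adjusted p of 0.05 by edgeR in any comparison (0 of 7), where 0.511% of 17023 genes passed for IVM against monocytes, 4.99% for microglia against monocytes and 1.29% for IVM against microglia. At an unadjusted p under 0.05 the members numbered 0 as well, against 8.38%, 17.2% and 7.21% of genes. DESeq2 called 0 members, against 5.78%, 14.7% and 5.97% of genes. Adjusted p-values of the members lay between 0.362 and 0.987 by edgeR's quasi-likelihood test. The largest differences were those of Hras, with a log2 difference of -2.23 (SE 1.18, adjusted p = 0.362) between microglia and monocytes and -2.07 (SE 1.26, adjusted p = 0.735) between IVM and monocytes. Both were small in wild type alone (-0.53 and 0.10) and large in the mutant libraries (-3.07 and -3.91).

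Single libraries moved the Hras comparisons with monocytes. The log2 difference between IVM and monocytes was -0.40 without VE monocytes and -3.61 without WT monocytes, and that between microglia and monocytes -0.29 and -3.50, with adjusted p-values by edgeR's quasi-likelihood test between 0.712 and 1.0. Without VE IVM the IVM difference was -0.67 (adjusted p = 0.65, edgeR). Without WT IVM, Hras passed edgeR's quasi-likelihood test for IVM against monocytes (log2 difference -3.48, adjusted p = 0.00417) and for microglia against monocytes (-1.81, adjusted p = 0.038). It also passed for microglia against monocytes without VE IVM (-1.82, adjusted p = 0.0374) and with the 4 libraries of those cell types alone (-1.83, adjusted p = 0.0262).

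Without regard to a test, the libraries of 2 cell types did not overlap for 3 of 7 members between IVM and monocytes, where 43.2% of genes did not overlap (20.3% higher and 22.9% lower in IVM). Araf and Map2k1 were higher and Mapk3 lower in IVM. Between microglia and monocytes this held for 3 of 7, against 62.2% of genes (32.9% higher and 29.2% lower), with Araf and Map2k1 higher and Hras lower in microglia. Between IVM and microglia every member overlapped, against 35.9% of genes that did not (13.7% higher and 22.2% lower in IVM). By the mean of the 2 libraries of a cell type, Araf was lowest in monocytes (46.3 CPM), then IVM (92.5 CPM) and microglia (107 CPM), and the last 2 overlap. Its log2 difference from monocytes was 1.16 in microglia (SE 0.70) and 0.96 in IVM (SE 0.695), with adjusted p-values of 0.428 and 0.791 by edgeR's quasi-likelihood test. The mean of Braf was 20.2 CPM in monocytes, 29.5 CPM in microglia and 35.0 CPM in IVM, with overlap between every pair. Nras was highest in monocytes (111 CPM), then microglia (90.6 CPM) and IVM (74.7 CPM), again with every pair overlapping. Hras had 34.7 CPM in monocytes, 17.3 CPM in IVM and 12.7 CPM in microglia. The mean of Map2k1 was 117 CPM in monocytes, 161 CPM in microglia and 175 CPM in IVM, and the last 2 overlap. Map2k2 had means of 94.9, 114 and 129 CPM in these cells, with every pair overlapping. WT IVM was the highest and VE IVM the lowest of its 6 libraries. Mapk3 was highest in monocytes (110 CPM), then microglia (103 CPM) and IVM (72.3 CPM).

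Other genes of the pathway were taken from 8 lists (93 genes in the table), chosen with earlier results of these data known. In monocytes 15 of 71 genes at 10 CPM or more were at least 2-fold higher in VE (21.1%) and 3 lower (4.23%), beside the 16.7% and 6.33% of all genes. In IVM 19 of 79 were higher and 17 lower (24.1% and 21.5%), beside 26.9% and 28.8% of all genes. In microglia 16 of 69 were higher and 25 lower (23.2% and 36.2%), beside 27.9% and 25.4%. The median log2 ratio of these genes was 0.18 in monocytes, 0.06 in IVM and -0.22 in microglia, where that of all genes was 0.05, -0.13 and 0.12. Of the listed RAS family GTPases beside Hras and Nras, 0 of 5 passed 2-fold in monocytes, 1 of 7 was higher and 2 lower in IVM, and 1 of 7 was higher and 1 lower in microglia.

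The lower counts in microglia depended on the length and GC correction. With it, 7 of the 69 genes were at least 2-fold lower there in place of 25, and 10 higher in place of 16. Beside them, 824 of 8716 genes in all were lower in VE microglia and 1443 higher after the correction. Before it, 2231 of 8798 were lower and 2458 higher. The microglia ratios of all genes narrowed too, with quartiles of -1.01 and 1.08 before and -0.408 and 0.705 after the correction. Corrected counts of single lists below are to be read beside this. In monocytes the correction left 15 higher and 2 lower, beside 1146 and 452 of 8292 genes in all. In IVM it left 22 higher and 18 lower, beside 2599 and 2449 of 9475 genes.

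Of the RAS family GTPases, Mras, a relative of the classical RAS genes, had 0 counts in WT IVM and 11.5 CPM in VE IVM, at least 141-fold higher against a floor of 3 counts per library. Rit1 and Rras2, further RAS relatives, were 2.41-fold (2.30 to 2.53) and 2.33-fold (2.06 to 2.64) lower in VE IVM.

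Regulators that act on RAS went different ways in the 3 cell types. Of the RAS GTPase activating proteins, which switch RAS off, and their partners, 5 of 7 were at least 2-fold lower in VE microglia and 0 higher (median log2 ratio -1.41), but 1 of 7 after the length and GC correction (median -0.50). In monocytes 2 of 7 were higher and 2 lower, and in IVM 3 of 8 higher and 2 lower. Spred1, an inhibitor that brings neurofibromin to RAS and the gene that stayed lower, had 97.4 CPM in WT and 22.6 CPM in VE microglia, 4.31-fold lower (3.98 to 4.66). In the other cells Spred1 was higher in VE, 2.21-fold in monocytes (2.00 to 2.44) and 4.27-fold in IVM (3.68 to 4.97). Rasal1 had 530 counts in WT IVM and 6 in VE IVM, 206-fold lower (94.0 to 564). Rasal3, a RAS GTPase activating protein of blood cells, was 3.36-fold lower in VE microglia and 2.42-fold lower in VE IVM.

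Of the activators and adaptors, 5 of 11 were lower and 1 higher in VE microglia, which became 1 lower and 2 higher after the correction. In IVM 4 of 13 were higher and 2 lower, and in monocytes 1 of 13 higher and 1 lower. The docking protein gene Gab1 had 0 counts in WT IVM and 20.2 CPM in VE IVM, at least 246-fold higher. Its relative Gab2 was 6.91-fold higher in VE IVM (6.13 to 7.81), and Frs2, a docking protein of growth factor receptors, 39.8-fold higher (25.4 to 66.2, with 19 counts in WT). In microglia all 3 were lower in VE, by 3.17-fold, 2.29-fold and 2.16-fold, and their log2 ratios after the correction were -0.59, -0.04 and -0.26. WT IVM, against which these folds are taken, was the library with the fewest genes detected.

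Around RAF and MEK, Shoc2, whose product helps to activate RAF, had 9 counts in WT IVM and 3711 in VE IVM. That is 177-fold higher in CPM (93.1 to 387), while in microglia it was 4.08-fold lower in VE (3.61 to 4.63). In monocytes Shoc2 was alike, at 42.9 CPM in both libraries. Ksr1, a scaffold of RAF, MEK and ERK, was 7.17-fold lower in VE IVM (6.05 to 8.54). Pebp1, an inhibitor of RAF, was 3.32-fold lower in VE IVM and 2.17-fold higher in VE microglia (corrected log2 ratio 0.22). Scaffolds and regulators as a list had 2 of 18 higher and 0 lower in monocytes, 1 of 19 higher and 3 lower in IVM, and 7 of 18 higher and 3 lower in microglia, where the correction left 1 higher and 1 lower. Of 4 further kinases listed for the RAF, MEK and ERK levels, 0 passed 2-fold in monocytes, 1 was lower in IVM, and 1 was higher and 2 lower in microglia. Map3k8, which phosphorylates MEK, was 4.06-fold higher in VE microglia (3.79 to 4.34). Mapk7, the ERK5 gene, was 3.57-fold lower there (3.18 to 4.03) and Map3k3, a kinase above ERK5, 2.23-fold lower (2.11 to 2.35), both short of 2-fold after the correction (log2 ratios -0.45 and -0.44).

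Downstream of ERK, the list of kinases activated by ERK had 3 of 7 higher and 2 lower in IVM, 0 of 6 higher and 0 lower in monocytes, and 0 of 6 higher and 4 lower in microglia (0 lower after the correction). Rps6ka2, a ribosomal S6 kinase, had 29 counts in WT IVM and 2954 in VE IVM, 43.7-fold higher (30.4 to 65.4). Mknk1, which encodes a kinase that acts on a translation factor, was 11.4-fold higher in VE IVM (10.4 to 12.6). Its relative Mknk2 was 6.27-fold lower there (5.98 to 6.56) and 4.70-fold lower in VE microglia (4.28 to 5.16, corrected log2 ratio -0.84).

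Genes that ERK switches on, with ERK phosphatases, were higher in 9 of 11 and lower in 0 in VE monocytes (median log2 ratio 2.80). Of all genes, 16.7% were higher and 6.33% lower there. The length and GC correction left 9 of the 11 higher and 1 lower (Dusp6). The neutrophil and erythroid sums above were higher in VE monocytes too. In IVM 6 of 14 were higher and 4 lower (median 0.66), beside 26.9% and 28.8% of all genes. In microglia 5 of 9 were higher and 2 lower (median 1.55), beside 27.9% and 25.4%. The correction left 7 higher and 4 lower in IVM, and 5 higher and 2 lower in microglia. Ier3, an immediate early gene, was 38.4-fold higher in VE monocytes (31.5 to 47.3) and 15.7-fold higher in VE microglia (15.1 to 16.4), and 1.48-fold lower in VE IVM (1.42 to 1.55), a direction that turned with the correction (log2 ratio 0.17). The Sprouty genes, inhibitors that ERK signalling induces, went apart in IVM. Spry4 had 0 counts in WT IVM and 14.7 CPM in VE IVM, at least 179-fold higher, while Spry2 had 370 and 11 counts, 78.4-fold lower in VE (43.3 to 158). In monocytes Spry2 was 3.47-fold higher in VE (2.92 to 4.15).

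In the parallel p38 and JNK kinases, 1 of 7 was higher and 0 lower in monocytes, 1 higher and 1 lower in IVM, and 1 higher and 3 lower in microglia. Map2k4, a kinase above JNK, was 8.10-fold higher in VE IVM (7.06 to 9.34) and 2.46-fold lower in VE microglia (2.26 to 2.68). Mapk13, the p38 delta gene, was 5.63-fold higher in VE monocytes (4.15 to 7.82), and Mapk14, the p38 alpha gene, 3.18-fold lower in VE microglia (3.03 to 3.33).

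In the cell type test, 89 genes of the 8 lists were tested. None passed for IVM against monocytes, 3 were higher and 5 lower in microglia than in monocytes, and 4 were higher in IVM than in microglia. These genes are named after their values were seen. They include exchange factors of the RASGRP family, which load RAS or RAP proteins with GTP. Rasgrp2 had 190 and 230.5 CPM in WT and VE monocytes, 88.0 and 88.6 CPM in IVM, and 0.153 and 0.276 CPM in microglia. Its log2 difference between microglia and monocytes was -9.98 (adjusted p = 0.000269, edgeR's quasi-likelihood test). Rasgrp3 stood the other way, at 286 and 261 CPM in WT and VE microglia and 0.254 and 4.76 CPM in monocytes (log2 difference 7.38, adjusted p = 0.00266, edgeR). Rasgrp1 had 147 and 58.1 CPM in WT and VE IVM and 0.109 and 0.921 CPM in microglia (log2 difference of IVM to microglia 8.18, adjusted p = 0.0061, edgeR). T and NK markers summed to 4795 CPM in WT IVM and 3.68 CPM in VE IVM, and their part in this difference was not tested. Iqgap1, a scaffold of MEK and ERK, had 810 and 565 CPM in monocytes and 10.1 and 5.81 CPM in WT and VE microglia (log2 difference -6.48, adjusted p = 0.00174, edgeR). These 4 comparisons kept their side of the threshold in 13 of 13 alternatives. The others were Dusp5, Egr1, Etv5, Lamtor2 and Rasgrp1 between microglia and monocytes, and Dusp5, Iqgap1 and Rasgrp2 between IVM and microglia.

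The genes whose pattern over the 6 libraries was most like each member were sought among 9876 other genes by Pearson's r of log2 CPM, a description over 6 libraries that share depth and cell type. Braf was most like Trim3 (r = 0.998) and Mgea5 (0.991), and Hras most like Abhd17b (0.992) and Smarca5 (0.984). For Araf they were Stub1 (0.994) and Fermt3 (0.990), for Nras Fndc3b (0.984) and Eif2s3x (0.977), and for Mapk3 Ppm1h (0.979) and Wasf2 (0.977). Map2k1 was most like Siglece (0.978) and Ebi3 (0.968), and Map2k2 most like the mitochondrial ribosomal genes Mrps22 (0.982) and Mrpl39 (0.982). At r of 0.9 or more stood 437 genes for Araf and 15 for Map2k1, the most and the fewest. Among the members themselves, r was lowest between Hras and Map2k1 (-0.96) and highest between Araf and Map2k1 (0.74).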

How the data were processed

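Per the labels' protocols, total RNA was column-purified (RNeasy Plus Mini), amplified as full-length cDNA (SMART-Seq HT) and made into Nextera XT libraries. Per the submitters' processing notes, bcl2fastq 2.20, Trimmomatic 0.37, STAR 2.5.2b, Subread 1.5.2 and mm10 were used; the sources used here give neither their roles nor the annotation nor the use of strand. The authors deposited raw read counts per gene and TPM for the same 6 libraries.

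Of 49315 lines, 176 without a name (at most 0.0166% of a library's counts) and 26 with a date for a symbol (at most 0.237%) were left out, and 94 repeated symbols were summed. For levels and genotype ratios, counts were scaled by TMM over all named genes (edgeR 4.0.16, R 4.3.3). Genotype ratios used a prior count of 2 and a rule of at least 2-fold with 10 CPM in the higher library; they have no test. Their intervals are exact conditional binomial intervals (scipy 1.17.1). Reads without molecular identifiers are not independent molecules. Cell types were tested with edgeR's quasi-likelihood test, filterByExpr by cell type and genotype as a block (2 residual degrees of freedom). Library sizes and TMM factors of that test were taken anew over the genes its filter kept. Benjamini-Hochberg adjustment was over all genes tested, 17023 in the main fit. A run on simulated counts had a fixed spread for all genes and no genotype difference, so it cannot show how the test behaves here. Alternatives used DESeq2 1.42.0 and limma 3.58.1 (log2(TPM + 1), genes reaching 1 TPM). SEs are the log2 difference over the root of F. Outside the alternatives, TPM ratios were used only within libraries. The reason was that 1 predicted gene, Gm23935 (named after its values were seen), held from 1.13% to 46.6% of the TPM. In the alternatives TPM was compared between libraries, namely in the TPM settings of the genotype ratios and in the limma fit. Ranges and counts over the settings therefore include TPM as deposited, of which Gm23935 is a part. GENCODE M21 gave coordinates, transcript lengths and GC content (99.0% to 99.1% of genes at 10 CPM matched by symbol). List members were named by size of the genotype ratio (up to 3 a list) and likeness by the 2 highest correlations. The likeness search left out predicted genes, pseudogenes, cytosolic ribosomal protein genes, genes of the mitochondrial genome and immune receptor segments. They were found by symbol, which also left out genes named alike, such as the S6 kinase gene Rps6ka2. The member genes, lists and rules were chosen with earlier results of these data known. Some genes of the pathway are not reported here.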

Additional observations from a re-analysis of the deposited data

How the results depend on the processing

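The number of members passing the cell type test was 0 in each comparison and, when single libraries were left out, lay between 0 and 1 for IVM against monocytes and for microglia against monocytes. It was also 1 for microglia against monocytes with the 4 libraries of those cell types alone; Hras was the gene each time. No member passed in any other alternative. The lone library of a cell type was then taken to vary like the others. In VE monocytes the members lower by the size rule numbered 2 with TPM of protein-coding genes, 0 after the length and GC correction and 0 at 4-fold, in place of 1. In VE IVM the members higher numbered 4 with TPM as deposited and 0 at 4-fold, in place of 1, and those lower numbered 1 with TPM as deposited, 1 after the length and GC correction and 1 at 4-fold, in place of 2. In VE microglia 1 member was higher after the length and GC correction, in place of 0, and those lower numbered 2 at 4-fold, in place of 3. Nras was at least 2-fold lower there in 3 of the 7 settings (log2 ratios from -1.92 to -0.53). No member ratio past the size rule changed sign. The cause of these moves was not tested. Scaling by library size alone moved the median log2 ratio of all genes from 0.05 to -0.58 in monocytes and from 0.12 to -0.62 in microglia, and TPM as deposited moved it from -0.13 to 1.02 in IVM. Over the alternatives, all genes passing the cell type test numbered 0 (library size alone) to 5089 (without VE IVM) for IVM against monocytes, in place of 87. They numbered 380 to 5207 for microglia against monocytes, in place of 849, and 90 to 5745 for IVM against microglia, in place of 220. Genes higher by the size rule numbered 459 (TPM of protein-coding genes) to 5499 (no CPM minimum) in monocytes, in place of 1395. They numbered 1579 (4-fold) to 10206 (no minimum) in IVM, in place of 2576, and 166 (TPM of protein-coding genes) to 5943 (no minimum) in microglia, in place of 2458. Genes lower numbered 51 (4-fold) to 3525 (no minimum) in monocytes, in place of 530. They numbered 989 (TPM as deposited) to 4963 (no minimum) in IVM, in place of 2758, and 408 (4-fold) to 5631 (no minimum) in microglia, in place of 2231. Rasgrp1 between microglia and monocytes passed in 8, Etv5 in 8, Lamtor2 in 7, Egr1 in 10 and Dusp5 in 12 of 13 alternatives. Rasgrp2 between IVM and microglia passed in 12 of 13. No paired analysis was possible because the labels give no replicate numbers; genotype is the block in the cell type test, and a fit of genotype over the cell types was not made, since these are no replicates of each other.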
